A study of Homo sapiens with 12 samples.

Results

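The SOX and T-box genes are a pair of families of transcription factors, and 32 listed members were examined, 17 SOX genes and 15 T-box genes. They were chosen by gene name, not by a measured value, out of 19970 coding genes (autosomes 1 to 22, and X). The list left out some genes of these families, SOX2 and SOX3 among them. For each gene and library, the bases lying inside peaks were summed within 2500 bp of either gene end, a window of at most 10002 bp. The peaks come from CUT&RUN, in which an antibody bound to chromatin directs a nuclease to release the DNA it sits on. The cells, MKL-1, are a cultured line from Merkel cell carcinoma. They received 3 µM EPZ011989, an inhibitor of the histone methyltransferase EZH2, or the vehicle. Both treatments contained 1% ethanol, were renewed on day 3 and ended on day 6. Antibodies against H3K27me3, H3K4me3 and control IgG were used on each culture, giving 12 libraries in 6 groups of 2. The replicates are repeated treatments of 1 cell line, and p-values cover that spread only.

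SOX proteins bind DNA through an HMG box and T-box proteins through the domain that names them, and members of both families direct cell fate in the embryo. H3K27me3 is written by EZH2 within Polycomb repressive complex 2 and typically covers developmental regulators in cells that do not use them. H3K4me3 marks gene starts that are active or can become so, and starts with both marks are commonly called bivalent. Merkel cell carcinoma is a neuroendocrine skin cancer, so factors of neural, neural crest, mesodermal, vascular and lymphoid fates can be followed in a single cell state.

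The deposited data were 1 peak list per library, so true depth is unknown. The H3K27me3 lists held 363 and 22 peaks with EPZ011989, against 40782 and 44287 with vehicle. The H3K4me3 lists held 23106 and 21086 peaks with EPZ011989, against 22726 and 23804 with vehicle. An estimate of background, in fragments per base, stood in for depth. It was 0.373 and 0.148 in the EPZ011989 H3K27me3 libraries, against 1.12 and 1.63 in the vehicle ones. For H3K4me3 it was 1.48 and 1.24 with EPZ011989, against 0.572 and 0.857 with vehicle. The IgG lists held 4 to 38 peaks and none at a member. Of 12 Merkel and neuroendocrine marker genes, 12 carried H3K4me3 in both vehicle libraries, against 4 of 6 fibroblast and 2 of 6 lymphoid and myeloid markers. Over all gene windows the share was 65.0%.

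The 300 bases from 250 before to 50 after the start were available for 20 of the 32 members from RefSeq (GRCh38.p14), and 6 are printed here 5′ to 3′ with each CpG in capitals. SOX21 (chr13:94712496-94712795, minus strand), SOX5 (chr12:24562442-24562741, minus strand) and TBR1 (chr2:161416047-161416346, plus strand) are shown because H3K4me3 near or on their starts was longer with EPZ011989. SOX1 (chr13:112066899-112067198, plus strand) and TBX1 (chr22:19756453-19756752, plus strand) are shown because they lay in or between H3K27me3 peaks and had no H3K4me3 peak on the start in any library. SOX4 (chr6:21593501-21593800, plus strand) is shown because H3K4me3 covered its start in all 4 libraries.
SOX21: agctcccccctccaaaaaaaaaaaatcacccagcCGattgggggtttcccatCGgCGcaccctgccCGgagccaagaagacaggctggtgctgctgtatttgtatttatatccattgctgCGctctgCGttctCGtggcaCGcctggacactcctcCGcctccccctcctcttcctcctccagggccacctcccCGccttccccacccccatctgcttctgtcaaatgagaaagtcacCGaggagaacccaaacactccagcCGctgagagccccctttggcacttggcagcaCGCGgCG
SOX5: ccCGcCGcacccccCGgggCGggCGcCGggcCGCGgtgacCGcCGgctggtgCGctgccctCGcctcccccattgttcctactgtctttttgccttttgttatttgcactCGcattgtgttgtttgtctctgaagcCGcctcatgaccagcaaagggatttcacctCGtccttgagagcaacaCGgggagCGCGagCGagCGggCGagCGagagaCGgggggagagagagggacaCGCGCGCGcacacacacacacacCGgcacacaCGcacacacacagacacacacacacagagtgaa
TBR1: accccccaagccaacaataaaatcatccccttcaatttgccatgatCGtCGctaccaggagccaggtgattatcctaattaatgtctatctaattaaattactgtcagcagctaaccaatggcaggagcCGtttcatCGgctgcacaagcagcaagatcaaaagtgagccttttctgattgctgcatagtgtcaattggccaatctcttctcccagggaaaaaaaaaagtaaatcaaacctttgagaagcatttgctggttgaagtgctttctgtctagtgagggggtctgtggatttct
SOX1: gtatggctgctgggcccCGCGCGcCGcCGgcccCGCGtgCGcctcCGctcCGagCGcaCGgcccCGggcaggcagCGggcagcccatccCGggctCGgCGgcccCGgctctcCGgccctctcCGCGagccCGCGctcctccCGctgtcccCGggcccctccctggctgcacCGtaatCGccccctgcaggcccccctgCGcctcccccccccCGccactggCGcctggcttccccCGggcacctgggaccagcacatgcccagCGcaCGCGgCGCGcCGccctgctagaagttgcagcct
TBX1: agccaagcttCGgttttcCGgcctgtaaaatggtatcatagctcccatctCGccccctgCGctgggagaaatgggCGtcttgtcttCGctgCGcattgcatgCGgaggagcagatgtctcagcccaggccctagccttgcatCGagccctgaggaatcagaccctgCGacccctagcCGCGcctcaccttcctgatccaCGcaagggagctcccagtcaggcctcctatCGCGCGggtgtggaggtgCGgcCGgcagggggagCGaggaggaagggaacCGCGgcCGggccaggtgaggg
SOX4: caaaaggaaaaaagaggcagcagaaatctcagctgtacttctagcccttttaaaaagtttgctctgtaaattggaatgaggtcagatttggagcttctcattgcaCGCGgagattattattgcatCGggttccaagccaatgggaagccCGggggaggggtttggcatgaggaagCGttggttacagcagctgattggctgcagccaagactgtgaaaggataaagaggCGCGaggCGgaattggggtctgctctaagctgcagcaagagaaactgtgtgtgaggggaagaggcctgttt
The SOX1 stretch held 37 CpGs, SOX5 29, TBX1 22, SOX21 15, SOX4 8 and TBR1 4. The median was 21.5 over the 20 members and 21.0 over 22155 protein-coding promoters of the same length. A dense CpG content was therefore found at SOX1 without H3K4me3, and a sparse one at SOX4 with it. Of members with a start sequence, 4 had only H3K27me3 (SOX1, SOX5, TBX1, TBX5). They held 15 to 37 CpGs, with a median of 25.5, against 9 over the 2542 promoters of all genes in that state. The medians were 21.0 against 24.0 for 10 members with both marks and 28.5 against 26.0 for 4 with H3K4me3 only. For 2 members with neither mark they were 10.5 against 5.00. The motif GGGCGG, read on both strands, occurred in 11 of the 20 member promoters and in 56.3% of all promoters. CCAAT occurred in 7 of the 20 and 34.6% of all, and TATAAA in 3 of the 20 and 9.47% of all. These matches describe letters only.

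In vehicle, Polycomb marking was common in both families. H3K27me3 peaks lay on 23 of 32 member windows in both vehicle libraries, 11 of 17 SOX and 12 of 15 T-box genes, where 36.9% of all windows were marked. H3K4me3 lay on 18 of 32, against 65.0% of all windows. Both marks were present at 14 members (background 24.2%), which were SOX11, SOX13, SOX14, SOX18, SOX21, SOX30, TBX2, TBX10, TBX18, TBX20, TBX21, TBR1, EOMES and TBXT. H3K27me3 alone marked 9 members (background 12.7%), SOX1, SOX5, SOX8, SOX9, SOX17, TBX1, TBX3, TBX5 and TBX15. H3K4me3 alone marked 4 (background 40.8%), SOX4, SOX6, SOX12 and TBX6. SOX7, SOX10, TBX4 and TBX19 had no peak of either mark in any library (in vehicle, 19.2% of all windows had neither mark). SOX15 had an H3K4me3 peak of 273 bp in 1 vehicle library, a state found in 3.15% of windows.

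**Figure D1:**
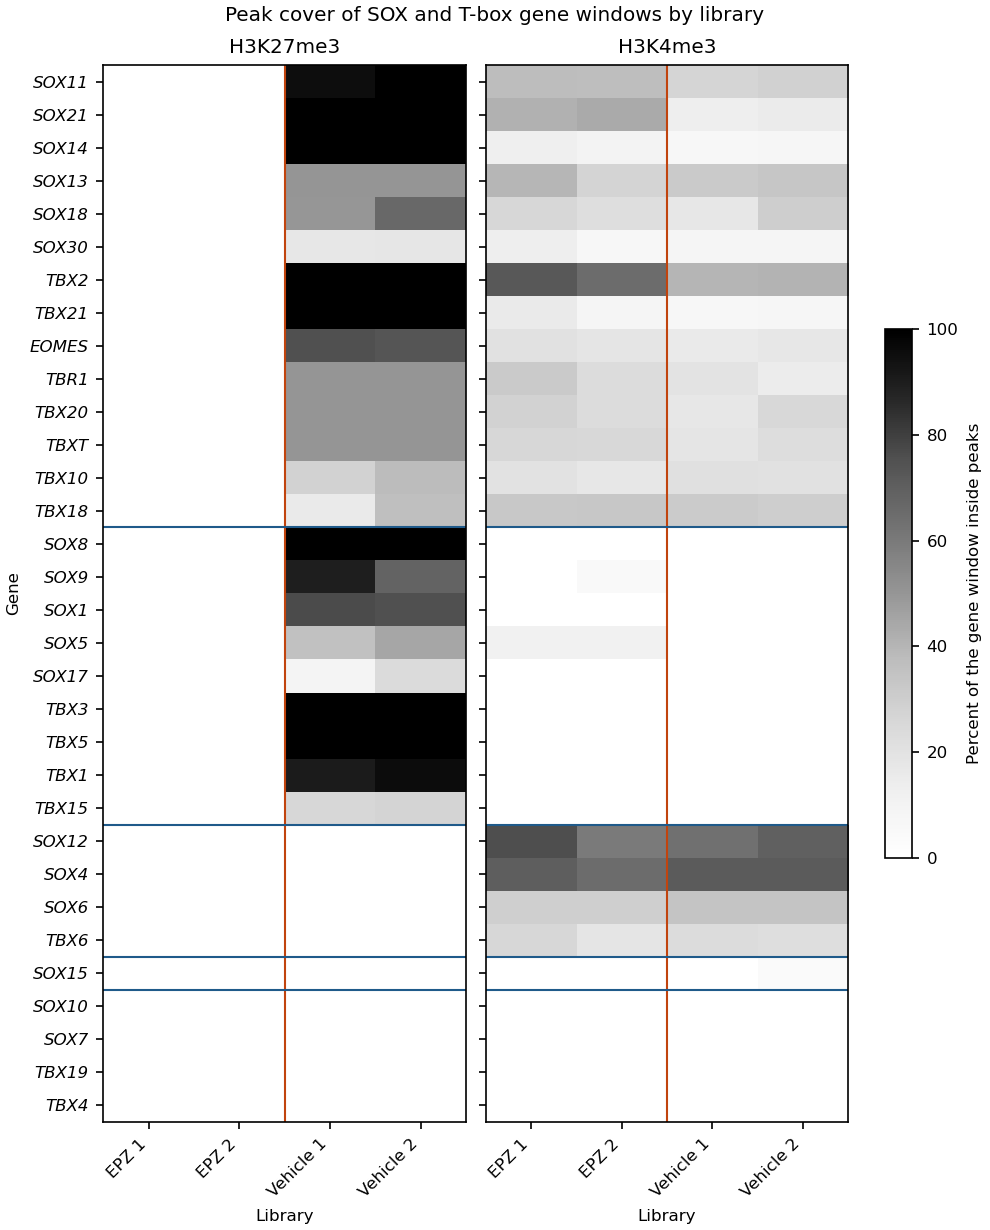
Percent of each gene window inside peaks, as a grey scale from 0 to 100, for H3K27me3 (left panel) and H3K4me3 (right panel); columns are the 2 EPZ011989 libraries and then the 2 vehicle libraries, rows are the 32 genes grouped by their marks in vehicle (both marks, H3K27me3 only, H3K4me3 only, 1 library only, neither). The H3K27me3 panel is empty in the EPZ011989 columns for all 32 genes, while 23 rows are filled in both vehicle columns.

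Where H3K27me3 was present in vehicle it tended to cover most of a member window. The median share of the window covered was 75.1% and 68.1% over the 23 marked members in vehicle replicates 1 and 2, against 34.3% and 39.1% over all 7371 marked windows. The whole window was covered in both vehicle libraries at 7 of 23, SOX8, SOX14, SOX21, TBX2, TBX3, TBX5 and TBX21, against 8.28% of all marked windows. Peaks merged over both vehicle libraries had a median length of 13.9 kb at members, taking the longest region at each, against 1.21 kb over all 54179 merged regions. A longest region is by its choice longer than an average one.

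The longest H3K27me3 regions lay on T-box genes of limb and heart. TBX5, a factor for heart and forelimb, lay in a merged region of 254 kb, with a single peak of 250 kb in vehicle replicate 1 and 251 kb in replicate 2. TBX3, its neighbour 262 kb away and a factor for limb and mammary gland, lay in one of 224 kb, with peaks of 157 and 170 kb. The 2 regions were 41.5 kb apart on chromosome 12. TBX21, the master factor of T helper 1 cells, lay in 94.5 kb that also held TBKBP1. SOX8, a factor of neural crest and gonad, lay in 122 kb that also held LMF1, SSTR5 and C1QTNF8, but as a 22.9 kb peak in vehicle replicate 1 and a 122 kb peak in replicate 2. TBX1, the pharyngeal factor on chromosome 22, lay in 34.3 kb reaching GNB1L. SOX21 lay in 24.8 kb, TBX2 in 23.5 kb, SOX11 in 21.6 kb and SOX14 in 20.8 kb. In all, 10 members had a region of 20 kb or more and 9 one under 10 kb, the shortest being SOX30 with 1.77 kb. The shares of all merged regions past these lengths were not counted. SOX17 gave 0.690 kb in vehicle replicate 1 and 5.38 kb in replicate 2.

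Length and fold were not the same property. The authors' fold at a peak, used here only for its place in its own list, put TBX2 at the 99.9th percentile in both vehicle lists although its region was 23.5 kb. SOX8 stood at the 99.8th and 99.9th percentiles and TBX21 at the same ones. TBX5, in the longest region, stood at the 92.4th and 93.7th. At SOX1, a factor of early neural progenitors, the mark was split around the start. Peaks ended 311 and 408 bp before the start in vehicle replicates 1 and 2 and resumed 1906 and 1957 bp after it, flanking the CpG-dense sequence above. These 2 peaks summed to 129 kb in each vehicle library, and no H3K4me3 peak filled the gap in any library. TBX4, a hindlimb factor 43.0 kb from TBX2, had no peak on its window, and its whole gene carried 2527 bp of H3K27me3 in vehicle replicate 2 only.

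**Figure D2:**
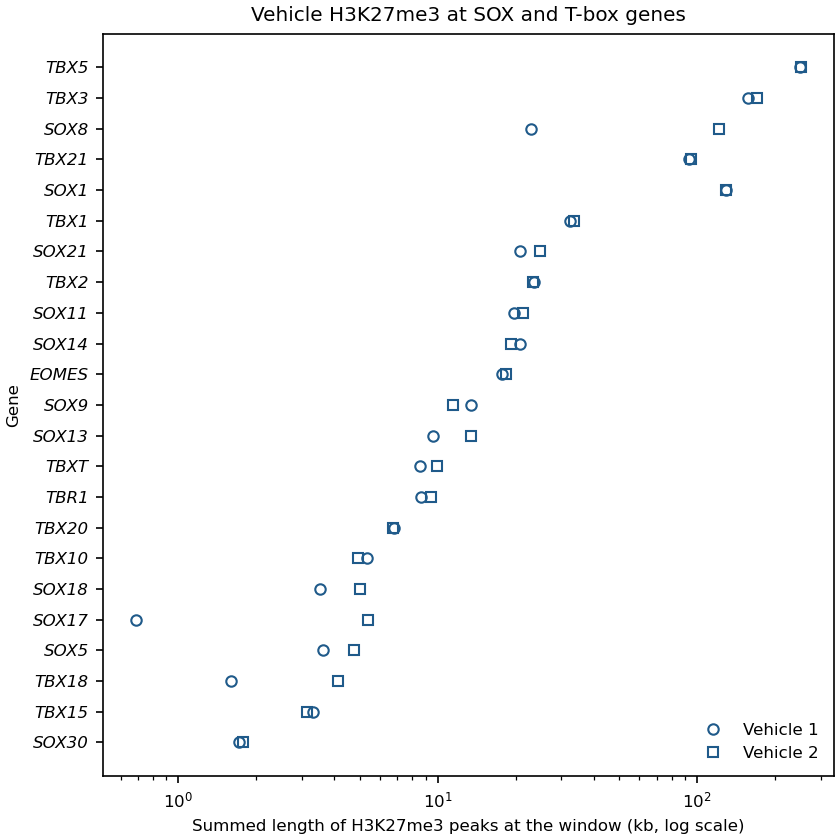
Summed length in kb, on a log axis, of the H3K27me3 peaks that touch each of the 23 marked gene windows, with a circle for vehicle replicate 1 and a square for vehicle replicate 2, ordered by merged region. The lengths run from 0.690 kb at SOX17 in vehicle replicate 1 to 250 and 251 kb at TBX5, and the replicates stand apart most at SOX8 and SOX17.

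With EPZ011989, no member window held an H3K27me3 peak in either library. All 23 members marked in both vehicle libraries had lost the mark, and so had 99.6% of all windows marked there. SOX21, for example, had 0 and 0 bp with EPZ011989, against 7924 and 7924 bp with vehicle. SOX9, a factor of cartilage and hair follicle, had 0 and 0 bp with EPZ011989, against 8975 and 6811 bp with vehicle. SOX5 had 0 and 0 bp with EPZ011989, against 3543 and 4461 bp with vehicle. The groups were fully separated at each of these genes. Of the 23 members tested by limma, 21 were lower at a Benjamini-Hochberg adjusted p under 0.05, against 60.2% of the 9600 windows tested. All 23 entered the test through vehicle peaks alone, which set the direction of each difference beforehand. TBX18 (adjusted p = 0.118 by limma) and SOX17 (adjusted p = 0.157 by limma) did not pass, and these were the members whose vehicle replicates differed most in proportion: 1590 and 3673 bp at TBX18, 690 and 1887 bp at SOX17. Of the calls made, SOX9 had the largest adjusted p by limma (0.0269, difference −7893 ± 1051 bp SE). At 11 members both groups had identical replicates, at 0 bp with EPZ011989 and at the full window or a full side of it with vehicle, so that their p-values measure no spread. Leaving out either EPZ011989 replicate left 1 library in that group, and fewer members and fewer of all windows then passed. The lower estimated background of the EPZ011989 H3K27me3 libraries and the treatment cannot be told apart here.

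Beyond the windows, 1 member kept a trace. Over the whole of SOX6, a long gene of cartilage and muscle fate, H3K27me3 peaks covered 383 and 0 bp with EPZ011989, against 28275 and 34986 bp with vehicle. The vehicle mark was concentrated within the gene, in peaks of 24249 and 19759 bp that began 115844 and 119469 bp after the start in replicates 1 and 2. The EPZ011989 peak of 383 bp lay 118526 bp after the start, inside the long peak of vehicle replicate 1 and outside that of replicate 2. The same stretch held a long H3K4me3 peak in every library, of 5599 and 5170 bp with EPZ011989 and 5039 and 5564 bp with vehicle. These ranges overlapped. The SOX6 start itself carried no H3K27me3.

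H3K4me3 was longer with EPZ011989 at several members, but no single member passed the adjusted test. Of 21 members with an H3K4me3 peak in at least 1 library, 0 were higher and 0 lower at an adjusted p under 0.05 (limma), as were 0 (0%) of all 13793 windows tested. The smallest limma adjusted p was 0.0729 among members and 0.0644 among all windows. At an unadjusted p under 0.05, 5 members were higher (SOX5, SOX11, SOX21, TBX2, TBR1), against 8.41% of all windows, and 0 were lower, against 1.48%. Both EPZ011989 values exceeded both vehicle values at 10 of the 21, against 24.4% of all windows. Both fell below both vehicle values at 3, SOX4, SOX6 and TBX10, against 12.7%. The gap was at least 500 bp upward at 4 members, SOX5, SOX11, SOX21 and TBX2, against 4.63% of all windows, and at least 1000 bp at 3 of them, SOX5, SOX21 and TBX2, against 1.07%. A gap of 1000 bp downward was seen at no member and in 0.0363% of all windows. With 2 libraries against 2, the smallest p that an exact two-sided permutation test can give is 1 in 3. The median difference was 242.5 bp over the 21 members and 52.0 bp over all windows. Without EPZ011989 replicate 1 these medians were 166.5 and −82.8 bp, and without EPZ011989 replicate 2 they were 539.0 and 190 bp. The EPZ011989 H3K4me3 libraries had the higher estimated background, and its part in these differences was not tested.

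**Figure D3:**
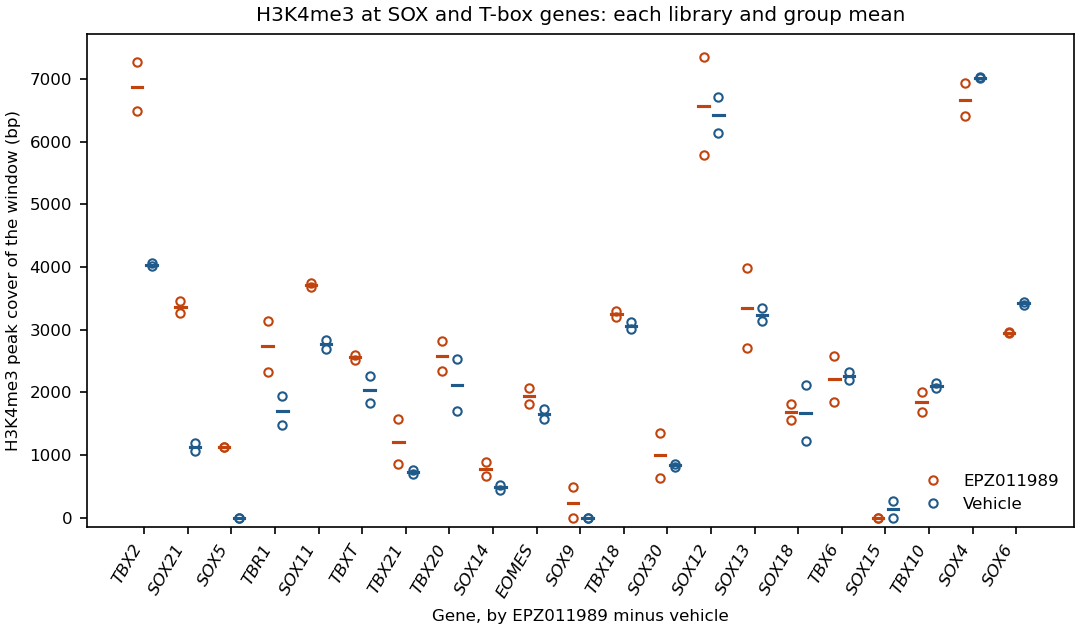
Bases of each gene window inside H3K4me3 peaks for the 21 genes with a peak in at least 1 library, ordered by the difference EPZ011989 minus vehicle; circles are libraries and bars group means, with EPZ011989 left of vehicle at each gene. TBX2, SOX21 and SOX5, at the left, have both EPZ011989 circles 1000 bp or more above both vehicle circles, and SOX4 and SOX6, at the right, have both below.

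Members were then grouped by their vehicle marks. Among the 14 members with both marks the median difference was 373.0 bp, against 204 bp over all 4838 windows with both marks, and 9 of the 14 had both EPZ011989 values above both vehicle values (background 40.5%). At 2 of the 14, SOX21 and TBX2, the gap was at least 1000 bp (background 2.27%). The exception in the other direction was TBX10 (background 6.32%), whose H3K4me3 peak lay at the gene end away from its start. Over the 4 pairs of an EPZ011989 and a vehicle library, the median over the 14 ran from 121.0 to 809.5 bp, and that over all windows with both marks from 47.0 to 372 bp. Among the 4 members with H3K4me3 only, the median was −200.5 bp, against −27.0 bp over 8141 windows. Its sign turned with the EPZ011989 library. Against vehicle replicates 1 and 2 it was 87.50 and 148.0 bp for EPZ011989 replicate 1 (all such windows 110 and 91.0 bp), and −488.0 and −540.0 bp for EPZ011989 replicate 2 (all such windows −156 and −181 bp). None of these 4 had both values above (background 13.5%) and 2 had both below (background 17.8%). Of the 9 members with H3K27me3 and no H3K4me3 in vehicle, 1 gained an H3K4me3 peak in both EPZ011989 libraries, SOX5, where 7.69% of 2314 such windows did.

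Among the listed SOXB genes, SOX21, a factor that promotes neuronal differentiation, differed most. Its H3K4me3 cover was 3260 and 3457 bp with EPZ011989, against 1060 and 1195 bp with vehicle. Both EPZ011989 libraries were far above both vehicle libraries and the replicates lay close together. The difference was 2231 ± 198 bp (SE; 2.98-fold; limma adjusted p = 0.0729), rank 19 of 13793 windows. In vehicle the peak lay wholly downstream, from 767 to 1826 bp after the start in replicate 1 and from 646 to 1840 bp in replicate 2, inside the H3K27me3 peak. With EPZ011989, peaks also covered the start, from 867 bp before it to 2042 bp after it in replicate 1 and from 924 bp before to 304 bp after it in replicate 2. A further peak 4846 and 4515 bp after the start, of 350 and 856 bp, appeared in the EPZ011989 libraries only. The start sequence printed above was thus outside H3K4me3 peaks in both vehicle libraries and within them in both EPZ011989 libraries.

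Its closest relative SOX14, a factor of brain and spinal cord neurons, had 884 and 671 bp with EPZ011989, against 450 and 516 bp with vehicle. The groups did not overlap, by 155 bp (limma adjusted p = 0.683), but the sign of the difference turned under quantile normalization. H3K27me3 had covered the whole window of both genes in vehicle. SOX1 had 0 bp of H3K4me3 in all 4 libraries. The 3 SOXB members thus lost H3K27me3 alike and ended with 41.1% and 43.6%, 12.6% and 9.56%, and 0% and 0% of the window under H3K4me3 with EPZ011989 at SOX21, SOX14 and SOX1.

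The SOXC group is needed for survival and differentiation of neuronal precursors. In each library its members SOX4 and SOX12 had a larger share of the window under H3K4me3 than any other listed SOX gene. SOX4 had 6934 and 6402 bp with EPZ011989, against 7014 and 7026 bp with vehicle. SOX12 had 7351 and 5791 bp with EPZ011989, against 6136 and 6706 bp with vehicle. SOX4 was lower in both EPZ011989 libraries and SOX12 overlapped, and neither had H3K27me3. SOX11, by contrast, carried both marks. Its window had 3741 and 3681 bp of H3K4me3 with EPZ011989, against 2687 and 2842 bp with vehicle. Both EPZ011989 values were higher, by 946.5 ± 193 bp (SE; limma adjusted p = 0.220). Vehicle replicate 1 had 3 separate peaks over the gene and vehicle replicate 2 had 2, and each EPZ011989 library had 1 unbroken peak, of 6457 and 6411 bp.

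Members of the SOXD group lack a transactivation domain and act beside SOX9 in cartilage. SOX5, of this group, was the only listed gene of either family with H3K4me3 in each EPZ011989 library and in no vehicle library. That pattern held in 1.33% of all windows. No member showed the reverse (background 0.203%). Its window had 1133 and 1122 bp with EPZ011989, against 0 and 0 bp with vehicle. The peaks were nearly the same in both EPZ011989 libraries, from 545 bp before to 587 bp after the start in replicate 1 and from 544 before to 577 after in replicate 2. The difference was 1127.5 ± 157 bp (SE; limma adjusted p = 0.150). The authors' folds were 8.08 and 4.90, and with peaks kept only at a −log10 q of 5 or more the difference was 566.5 bp. In vehicle the same start was covered by H3K27me3 peaks of 3620 and 4778 bp. A second H3K4me3 peak within SOX5, beginning 611290 to 611563 bp after the start, was present in all 4 libraries, with 2320 and 1398 bp with EPZ011989 and 1411 and 1105 bp with vehicle. SOX6 had 2962 and 2944 bp with EPZ011989, against 3434 and 3400 bp with vehicle, a difference of −464 ± 187 bp (SE; limma adjusted p = 0.511) in a peak it shares with C11orf58. SOX13 had 3979 and 2712 bp with EPZ011989, against 3135 and 3346 bp with vehicle, which overlapped, and 1 of its peaks is shared with ETNK2.

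H3K4me3 did not separate the treatments at any of the remaining listed SOX genes. In the SOXE group, which directs neural crest, glia and gonad, SOX8 and SOX10 had none in any library and SOX9 had 0 and 485 bp with EPZ011989, against 0 and 0 bp with vehicle. SOX8 and SOX9 had lost long H3K27me3 peaks, whereas SOX10 had no peak to lose. In the SOXF group, factors of endothelium and endoderm, SOX7 and SOX17 had no H3K4me3. SOX18 had 1810 and 1566 bp with EPZ011989, against 1227 and 2110 bp with vehicle, and the groups overlapped. SOX30, a factor of male germ cells, had 1353 and 633 bp with EPZ011989, against 856 and 811 bp with vehicle, in a peak shared with C5orf52, and the groups again overlapped.

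**Figure D4:**
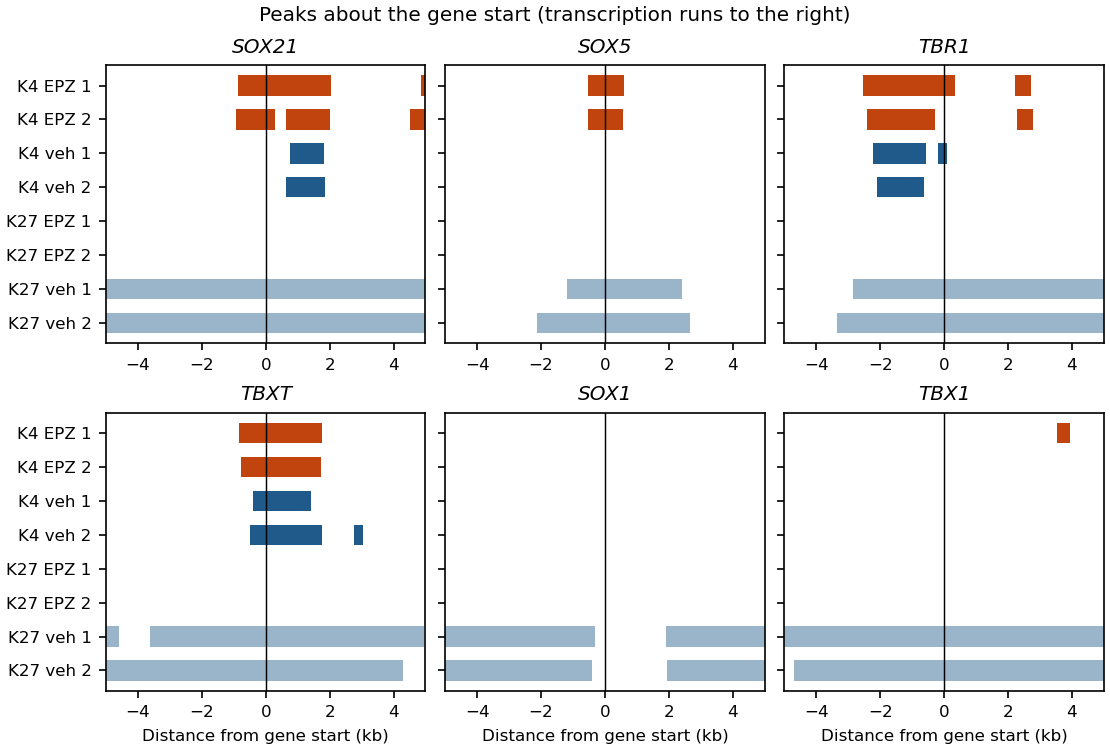
Peaks within 5 kb of the start of SOX21, SOX5, TBR1, TBXT, SOX1 and TBX1, with transcription to the right and distance from the start in kb on the horizontal axis; rows are the 2 EPZ011989 and then the 2 vehicle libraries, first for H3K4me3 (K4) and below for H3K27me3 (K27), and bars are peaks. H3K4me3 covers the SOX21 and SOX5 starts with EPZ011989 only, H3K27me3 bars appear with vehicle only, and SOX1 has a gap between H3K27me3 peaks at its start.

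Among the listed T-box genes, TBX2, a repressor that restrains CDKN1A and senescence and acts in limb and heart, differed most. Its window had 7263 and 6488 bp of H3K4me3 with EPZ011989, against 4009 and 4063 bp with vehicle. Both EPZ011989 libraries were well above both vehicle libraries, and the EPZ011989 replicates were farther apart. The difference was 2839.5 ± 367 bp (SE; 1.70-fold; limma adjusted p = 0.136), rank 5 of 13793 windows. Over the whole gene with 2500 bp to each side the cover was 9122 and 8351 bp with EPZ011989, against 4574 and 5149 bp with vehicle. The main peak at the lower-coordinate end had 4156 and 3717 bp with EPZ011989, against 1545 and 1867 bp with vehicle. Vehicle replicate 1 had a further peak of 467 bp there and EPZ011989 replicate 2 one of 359 bp. All peaks within 2500 bp of that end covered 3801 and 3732 bp with EPZ011989, against 2012 and 1867 bp with vehicle. At the upper-coordinate end a peak of 4283 and 3947 bp with EPZ011989 stood in place of 2 vehicle peaks, of 594 and 2403 bp in replicate 1 and 809 and 2296 bp in replicate 2. All vehicle H3K4me3 of the window lay inside the H3K27me3 peak.

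**Figure D5:**
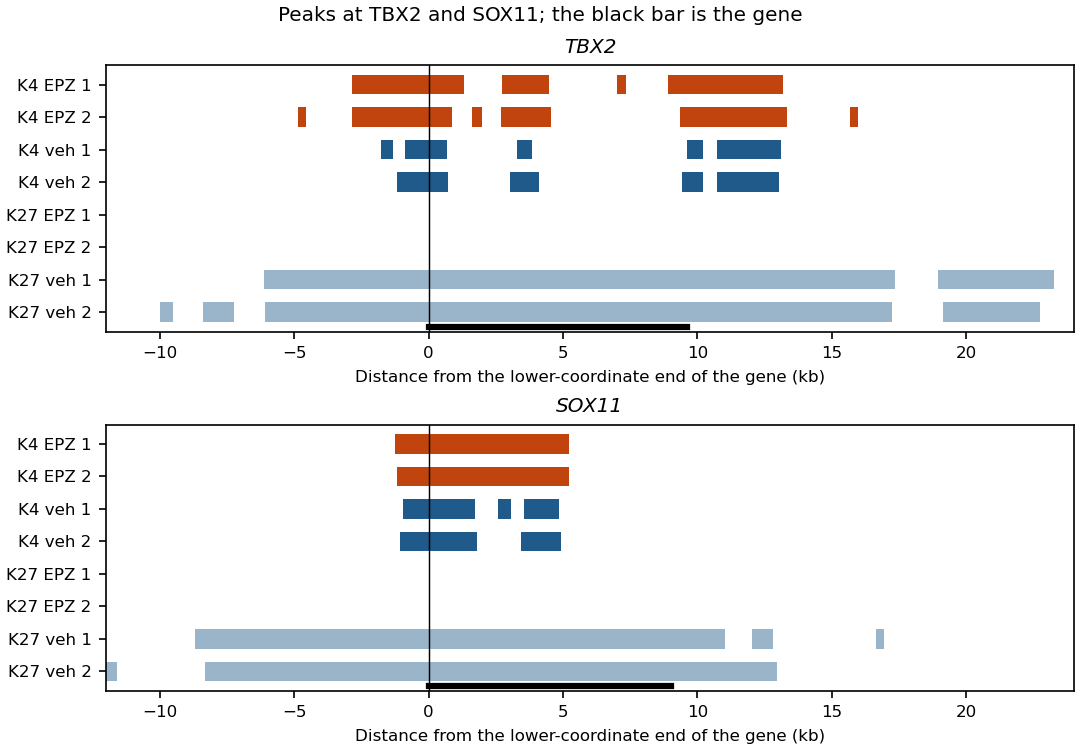
Peaks over TBX2 (top) and SOX11 (bottom) against distance in kb from the lower-coordinate end of the gene, with the gene as a black bar; rows are the 2 EPZ011989 and then the 2 vehicle libraries, for H3K4me3 (K4) and below for H3K27me3 (K27). Separate vehicle H3K4me3 peaks are joined or longer with EPZ011989, as in the unbroken SOX11 peaks of 6457 and 6411 bp.

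The other members of the TBX2 subfamily did not follow. TBX3 and TBX5 had 10002 bp of H3K27me3 in both vehicle libraries, as TBX2 had, and lost all of it. They had 0 bp of H3K4me3 in all 4 libraries, and so did TBX4. Full cover by H3K27me3 in vehicle was thus found both at members with long H3K4me3 peaks and at members with none.

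The TBR1 subfamily carried both marks throughout. TBR1, a factor of deep-layer cortical neurons, had 3144 and 2326 bp with EPZ011989, against 1949 and 1471 bp with vehicle. The EPZ011989 values were both higher but the replicates of each group lay well apart, and the difference was 1025 ± 344 bp (SE; limma adjusted p = 0.434). Its main peak, shared with PSMD14, lay before the start in 3 of the 4 libraries and ran across it in EPZ011989 replicate 1. In vehicle replicate 1 a separate peak of 278 bp lay across the start. A peak 2209 and 2291 bp after the start, of 505 and 491 bp, was seen in the EPZ011989 libraries only. EOMES, a factor of mesendoderm, cortical progenitors and lymphocytes, had 2069 and 1816 bp with EPZ011989, against 1570 and 1729 bp with vehicle. TBX21 had 1570 and 851 bp with EPZ011989, against 703 and 769 bp with vehicle. The groups were separated at both genes, by 87 bp at EOMES and 82 bp at TBX21, which is less than the gap between the EPZ011989 replicates.

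TBXT, the brachyury gene of the notochord, had 2597 and 2523 bp with EPZ011989, against 1822 and 2255 bp with vehicle. The groups did not overlap (521.5 ± 229 bp SE; limma adjusted p = 0.563), and its peaks covered the start in all 4 libraries. TBX19, a pituitary factor, had no peak. TBX6, a factor of somite mesoderm, had H3K4me3 only, 2584 and 1843 bp with EPZ011989 against 2329 and 2196 bp with vehicle, in a peak shared with YPEL3.

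In the TBX1 subfamily, TBX18, a factor of the sinus node and ureter, had 3207 and 3304 bp with EPZ011989, against 3115 and 3002 bp with vehicle. The groups were separate but close, and over the whole gene they overlapped, with 5173 and 4262 bp with EPZ011989 and 6004 and 4617 bp with vehicle. TBX20, a heart factor, had 2811 and 2337 bp with EPZ011989, against 1710 and 2535 bp with vehicle, and overlapped. TBX10 had 2010 and 1694 bp with EPZ011989, against 2145 and 2069 bp with vehicle, in a peak shared with NUDT8. The peak began 8529 to 8677 bp after the TBX10 start, and no H3K4me3 lay within 2500 bp of that start in any library. TBX10 was the only member with both marks on its window that was lower in both EPZ011989 libraries. Its H3K4me3 also lay mostly apart from its H3K27me3, with 0% and 29.7% of it inside the H3K27me3 peaks of vehicle replicates 1 and 2. At 10 of the 14 members with both marks this share was 100% in both vehicle libraries. TBX15, a factor of brown fat and muscle, had no H3K4me3. TBX1 had none on its window, and 404 and 0 bp within the gene with EPZ011989, against 0 and 0 bp with vehicle.

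Known partners and targets of these factors were followed as a list of 52 genes. H3K27me3 lay on 37 of 52 in both vehicle libraries (background 36.9%) and on none of those 37 with EPZ011989. Limma called 34 of 38 tested lower (background 60.2%), and those 38 also entered the test through vehicle peaks alone. H3K4me3 was present at 25 of 52 in both vehicle libraries, a smaller share than the 65.0% of all windows. Of 29 genes tested for H3K4me3, 19 had both EPZ011989 values above both vehicle values (background 24.4%) and 0 had both below (background 12.7%). In vehicle, 19 of the 52 genes carried both marks. Among all windows with both marks in vehicle, these shares were 40.5% and 6.32%. The median H3K4me3 difference was 300 bp, against 52.0 bp over all windows and 204 bp over windows with both marks in vehicle. At 3 of the 29, each EPZ011989 value exceeded each vehicle value by at least 1000 bp, against 1.07% of all windows. FOXD3, a neural crest factor, had 4602 and 4114 bp with EPZ011989, against 2899 and 2829 bp with vehicle. TEAD2, a target of SOXC factors in mouse, had 2383 and 2214 bp with EPZ011989, against 959 and 720 bp with vehicle. DLL1, a Notch ligand of mesoderm, had 6469 and 6421 bp with EPZ011989, against 4732 and 4853 bp with vehicle. These 3 had fully separated groups, and each carried both marks in vehicle. Among all windows with both marks in vehicle, 2.27% had such a gap.

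New H3K4me3 peaks in both EPZ011989 libraries appeared at 2 of the 29 tested (background 1.33%). Both had H3K27me3 and no H3K4me3 in vehicle, a state in which 7.69% of all windows gained a peak. MATN1, a cartilage matrix gene, had 555 and 374 bp with EPZ011989, against 0 and 0 bp with vehicle. KDR, an endothelial receptor, had 721 and 363 bp with EPZ011989, against 0 and 0 bp with vehicle. By contrast COL2A1, the collagen gene activated by SOX9 with SOX5 and SOX6, had 0 and 0 bp of H3K4me3 with EPZ011989 and 0 and 0 bp with vehicle. Its H3K27me3 was 0 and 0 bp with EPZ011989, against 5001 and 5001 bp with vehicle. Cartilage genes lost H3K27me3 at 6 of 6 marked, endothelial genes at 7 of 7 and neural crest and glial genes at 8 of 8 (background 99.6%).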

How the data were processed

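CUT&RUN libraries from 12 MKL-1 samples (EPZ011989 or vehicle; H3K27me3, H3K4me3 or IgG; 2 replicates each) were analysed from the deposited peak lists on hg38. Tools, per the submitters' processing notes, included MACS2 2.1.1.20160309, Bowtie2 2.2.9, SAMtools 0.1.19 and FastQC; thresholds, control library and any use of the spike-in are not given in the sources used here. The authors' lists give for each peak a fold (a ratio to local background), a −log10 p, a −log10 q and a score. Reads were not analysed here, so no scaling between libraries was made, and background in fragments per base was estimated per list from its modal fold and the −log10 p there.

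Windows reaching 2500 bp either way from each gene end were placed with a GRCh38.p14 gene table, and covered bases were counted. A peak overlapping by 1 bp or more marked a window. Each mark was tested alone in R 4.3.3 by limma 3.58.1, with its trend and robust options, Benjamini-Hochberg adjustment and a threshold of 0.05, over all windows that any of the mark's 4 libraries marked, after the fit had been tested on simulated data. Starts and strands were known for 20 members. Neighbouring genes can share a peak. Python 3.11.15, numpy 2.4.6, pandas 2.3.3, scipy 1.17.1 and matplotlib 3.10.9 were used.

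The members, the target list and the tests were chosen with earlier results of these data known. All 32 members may be named; those described in full had both EPZ011989 H3K4me3 values 500 bp or more above both vehicle values, or the reverse, or an EPZ011989 H3K27me3 peak, with contrasting relatives. Target genes are named where H3K4me3 was gained or was longer by 1000 bp, and COL2A1 was named after its values were seen. Alternatives were other windows, a −log10 q of 5 or more, an overlap of 500 bp, no filter, quantile normalization, limma without trend and robust, a replicate block, and leaving out each replicate.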

Additional observations from a re-analysis of the deposited data

How the results depend on the processing

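Of 263 H3K27me3 values of single members under the alternatives, 2 changed sign, and of 261 H3K4me3 values 19 did. The 19 lay at SOX12, SOX13, SOX14, SOX15, SOX18, SOX30, TBX6, TBX18 and TBX20, none of which passed the limma threshold. The 2 H3K27me3 values came from quantile normalization, SOX30 with a difference of 241.75 bp (adjusted p = 0.164 by limma) and SOX17 with 498.81 bp (adjusted p = 0.0732 by limma). That scaling forces the sparse EPZ011989 lists onto the vehicle ones, giving 3309 windows higher and 3599 lower over all genes. For the window about the gene start only, 20 members had a known start. Of the members tested in it, 13 of 14 were lower for H3K27me3, against 3410 of 7105 over all windows. In that window 14 of 20 carried H3K27me3 in both vehicle libraries and 9 carried both marks. The same shares over all start windows were not computed, so these counts have no background here. H3K4me3 members called higher by limma numbered 0, but 2 with windows of 5000 bp (SOX21, TBX2), 2 with quantile normalization (SOX21, TBX2) and 4 with no filter (SOX5, SOX21, TBX2, TBR1); over all windows these settings called 35, 89 and 491 higher and 0, 7 and 32 lower. Quantile normalization moved the H3K4me3 median of all windows from 52.0 to −40.5 bp. Without filter, H3K27me3 could not be fitted.

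Leaving out 1 replicate at a time left 1 library in a group. With a vehicle replicate dropped, all spread came from the EPZ011989 libraries. These had 0 bp of H3K27me3 at every member, so passing members in those fits show no robustness. Over all windows the H3K27me3 median was −2802 and −2777 bp after dropping vehicle replicates 1 and 2, and −2242 and −2235 bp after dropping the EPZ011989 ones. The median H3K4me3 difference over members was 166.5 bp once EPZ011989 replicate 1 was dropped and 539.0 bp once its replicate 2 was. Dropping vehicle replicate 1 gave 213.5 bp and dropping vehicle replicate 2 gave 403.8 bp. Over all H3K4me3 windows, dropping EPZ011989 replicate 1 turned the median to −82.8 bp, and dropping its replicate 2 made it 190 bp. A lone library was then assumed to vary like the other group. The replicate block gave 19 members lower for H3K27me3 (SOX9 and TBX10 were lost), against 4555 of 9600 over all windows. It gave 0 higher for H3K4me3, as over all windows. The deviations of same-numbered libraries correlated at 0.02 over 9600 H3K27me3 windows and −0.03 over 13793 H3K4me3 windows. With hardly any EPZ011989 H3K27me3 peaks, the first value could not have shown a pairing. The sample labels give replicate numbers and name no pairs, and the main fits took the libraries as unpaired. Covered length can depend on depth, which peak lists do not give.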
